A study of Mus musculus with 12 samples.

Results

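The genes described here are 9 enzymes of the tricarboxylic acid (TCA) cycle and its cytosolic counterparts: Cs, Idh3a, Idh2, Idh1, Ogdh, Suclg1, Fh1, Mdh2 and Mdh1. They were listed by name, and each was read through every array feature that the platform annotation assigns to that gene symbol alone. All 9 were found on the Mouse Genome 430 2.0 arrays, through 22 of 45037 probe sets, among 18193 genes. On the Mouse Exon 1.0 ST arrays 8 were found, through 8 of 23238 transcript clusters, among 14807 genes. Mdh1 has no exon value here, because its transcript cluster is annotated with a further gene symbol.

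The TCA cycle runs in the mitochondrial matrix, where it oxidises acetyl groups from pyruvate, fatty acids and amino acids and passes the electrons to the respiratory chain. Its intermediates also leave the mitochondrion: citrate feeds lipid synthesis in the cytosol, 2-oxoglutarate serves dioxygenases that demethylate DNA and histones, and malate carries reducing equivalents between compartments. In macrophages the cycle is known for being rewired on activation, with citrate diverted to fatty acids and itaconate.

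RNA came from PUER cells, a line of mouse myeloid progenitors without a working PU.1 gene of their own, to which a PU.1-estrogen receptor fusion was added. In this model 4-hydroxytamoxifen (OHT) activates the fusion protein, so the response is that of an added transgene in a cell line and not of the natural gene. Per the labels all cells grew in 10% serum, puromycin and 5 ng/ml interleukin-3, and the groups were uninduced cells (0 h) and cells given 100 nM OHT for 24 h, with 3 arrays per group on each of the 2 designs. The labels name neither the cultures nor whether both designs used the same RNA, so every p-value rests on the spread among arrays alone, and that spread may be technical. In RNA from whole cultures, fewer cells of a kind and less RNA per cell cannot be told apart.

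The labels of the designs oppose each other. Over the 13356 genes shared by the designs, the changes from 0 h to 24 h by label, in log2 units, correlated at r = -0.86 (Pearson) and -0.72 (Spearman), a description across genes that are not independent. Of 3770 genes called on both, 3713 changed in opposite directions. Macrophage markers show it: the mean log2 signal of 8 of them lay between 5.34 and 5.36 on the 430 arrays labelled 0 h and between 10.34 and 10.41 on those labelled 24 h, whereas 7 of them lay between 8.79 and 8.86 on the exon arrays labelled 0 h and between 4.62 and 4.76 on those labelled 24 h. The mean of the 6 progenitor markers moved the other way (4 called lower, Mpo higher and Cd34 not called on the 430 arrays), from 9.90 to 9.93 down to 7.93 to 7.98 on the 430 arrays, and from 7.01 to 7.14 up to 8.42 to 8.56 on the exon arrays. The largest 430 change on the macrophage list was that of Ptprc, the CD45 phosphatase gene (9.38, against an exon change of -6.90). Its other probe set gave 0.70 at a low signal (means 3.56 and 4.26), and the mean over both gave 5.04. On the progenitor list the largest 430 change was that of Gfi1, a repressor gene (-5.07, against 3.51). On the 430 arrays 26% of all genes were called higher and 26.1% lower. Of 12 markers of other lineages 9 were measured, and 2 were called higher, 2 lower and 5 not called on these arrays. Their mean there lay between 6.11 and 6.23 at 0 h and between 6.05 and 6.12 at 24 h by label. The basophil protease gene Mcpt8 had the largest change among them (-1.48, and 1.36 on the exon arrays). The means of the macrophage and progenitor lists moved in opposite directions by label on the 2 designs. So did 7 of the 8 members on both designs, all but Cs. The part of these lists in the members' changes was not tested. Every direction below is therefore that of the labels, each design is described from its own arrays, and exchanging the exon labels would turn the sign of every exon change without altering its size.

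Promoters of 4 members are shown first: Ogdh and Mdh2, whose windows hold a searched motif, and Mdh1 and Fh1, whose windows hold none. Each is 300 bases, from 250 before to 50 after a RefSeq gene start of build GRCm38.p6, written 5′ to 3′ on the strand of the gene. Capitals mark the cyclic-AMP response element TGACGTCA or the E-box CACGTG, the site that MYC and related factors bind. Ogdh is shown at a pair of its annotated starts because they hold different motifs. The windows of Cs, Idh1, Idh2 and Suclg1 also hold neither motif, and of these Idh1, Idh2 and Suclg1 were called lower on the 430 arrays, as Ogdh and Mdh2 were.
Ogdh, chr11:6291409-6291708, plus strand: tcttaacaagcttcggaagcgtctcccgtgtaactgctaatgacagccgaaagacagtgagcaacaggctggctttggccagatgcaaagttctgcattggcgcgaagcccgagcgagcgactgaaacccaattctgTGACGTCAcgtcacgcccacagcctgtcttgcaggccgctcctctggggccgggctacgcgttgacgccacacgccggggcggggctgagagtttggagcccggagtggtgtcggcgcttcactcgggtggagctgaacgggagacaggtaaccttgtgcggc
Ogdh, chr11:6291920-6292219, plus strand: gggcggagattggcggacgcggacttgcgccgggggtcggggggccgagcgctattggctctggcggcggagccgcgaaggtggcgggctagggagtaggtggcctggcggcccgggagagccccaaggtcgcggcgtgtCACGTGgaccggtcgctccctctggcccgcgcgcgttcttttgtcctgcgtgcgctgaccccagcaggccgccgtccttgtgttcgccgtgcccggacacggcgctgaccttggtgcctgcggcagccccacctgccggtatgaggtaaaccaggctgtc
Mdh2, chr5:135778399-135778698, plus strand: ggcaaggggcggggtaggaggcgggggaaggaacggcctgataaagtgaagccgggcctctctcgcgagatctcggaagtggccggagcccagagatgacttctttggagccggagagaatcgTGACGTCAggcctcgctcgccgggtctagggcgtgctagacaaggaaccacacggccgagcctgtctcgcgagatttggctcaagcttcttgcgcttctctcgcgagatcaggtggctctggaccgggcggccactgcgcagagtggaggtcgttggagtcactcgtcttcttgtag
Mdh1, chr11:21571885-21572184, minus strand: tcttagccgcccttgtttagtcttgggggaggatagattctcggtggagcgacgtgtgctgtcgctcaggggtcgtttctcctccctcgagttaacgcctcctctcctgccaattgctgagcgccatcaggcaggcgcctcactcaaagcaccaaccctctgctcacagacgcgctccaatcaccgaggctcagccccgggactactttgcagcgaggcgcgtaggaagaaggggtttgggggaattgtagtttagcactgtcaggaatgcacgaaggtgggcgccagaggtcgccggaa
Fh1, chr1:175625586-175625885, minus strand: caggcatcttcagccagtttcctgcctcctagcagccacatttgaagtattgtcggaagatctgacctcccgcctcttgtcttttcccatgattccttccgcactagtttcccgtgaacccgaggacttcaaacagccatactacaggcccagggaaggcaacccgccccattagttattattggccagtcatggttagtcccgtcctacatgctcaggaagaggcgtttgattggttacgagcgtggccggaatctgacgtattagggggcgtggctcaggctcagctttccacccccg

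The table holds 14 such windows for 8 of the 9 genes, with none for Idh3a. Searched on both strands, TGACGTCA stood in 4 of the 14 member windows, against 1.79% of all 32851 windows. These are windows of Ogdh and Mdh2, with the motif at -113 from the Ogdh start shown and at -127 from that of Mdh2. The Ogdh windows that hold it overlap and share the same site, and other Ogdh windows lack it. CACGTG stood in 3 of the 14, all of them windows of Ogdh and some overlapping, against 7.15% of all windows. It lay at -110 from the second start shown. The ETS-family motif CCGGAAG (8.86% of all windows), the consensus NRF1 motif (0.97%) and the PU.1-type motif GAGGAAGT (3.2%) matched in no member window. The motifs were picked after the sequences had been seen, and the matches are a description of letters within these windows. The median G+C content was 59.7% over the member windows and 52.7% over all windows. Ogdh has several of the member windows, some overlapping and between 49.3% and 72.3%, so it weighs more in that member median than other genes.

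The first comparison asks how the cycle genes differ between conditions on the 430 arrays. In the arrays labelled 24 h, 6 of the 9 genes were called lower (Idh3a, Idh2, Idh1, Ogdh, Suclg1 and Mdh2) and 3 higher (Cs, Fh1 and Mdh1). Calls were common on this design: 52.1% of all genes were called, 26.1% lower and 26% higher, so that all 9 members were called has to be read against that. All 9 also lie among the probe sets with a mean signal above the median, where calls were more common. Of those 22518 probe sets, 16515 were called, 9671 lower and 6844 higher. The members' median log2 change was -0.39, against 0.063 over all genes, and the changes ran from -1.06 (Idh3a) to 0.77 (Fh1). The values of the groups did not overlap for any of the 9 genes, a separation that 29% of all genes showed downwards and 32% upwards. Of the 9 genes, Idh3a alone was called with a log2 change of at least 1, a count near the share of 9.76% over all genes. A gene is represented here by its probe set with the highest mean signal, and the other probe sets follow further on.

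**Figure D1:**
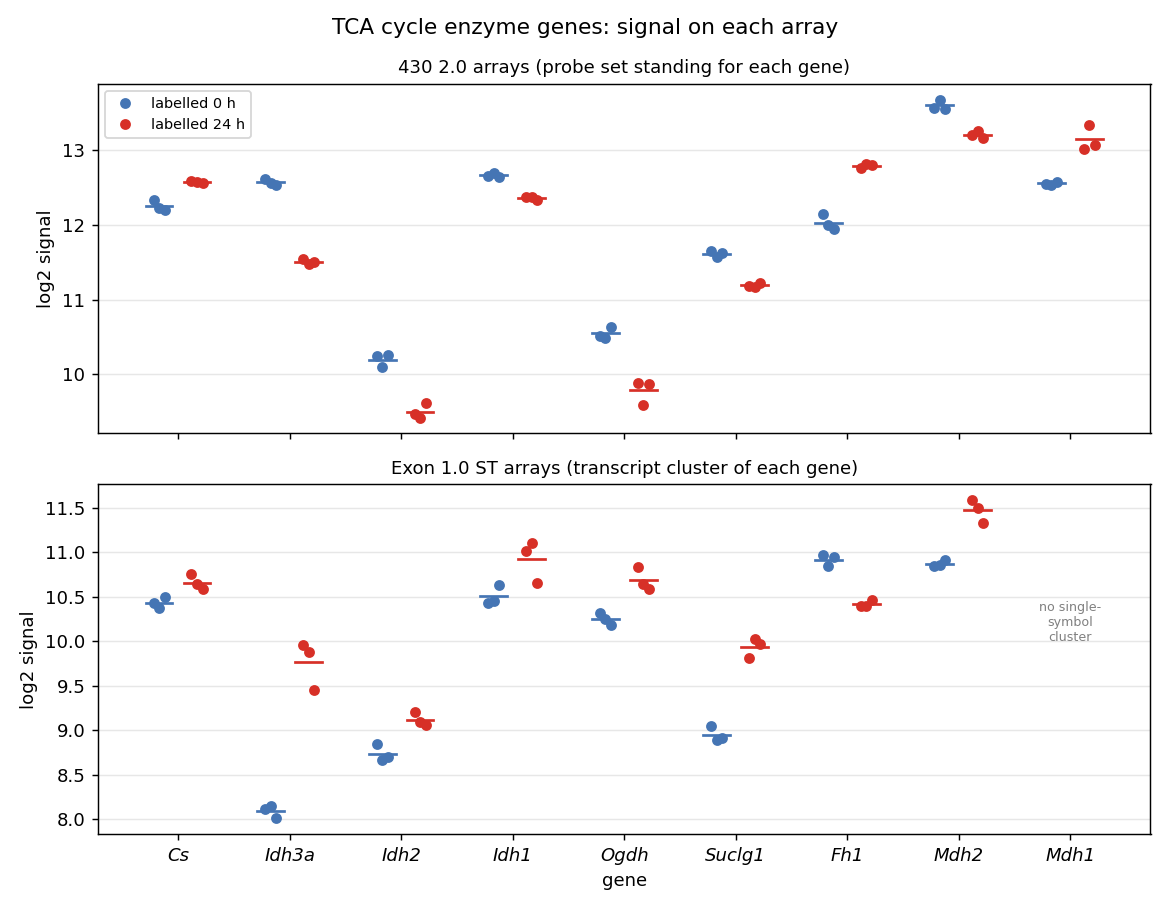
Log2 signal of each gene on every array (points) with the group mean (short lines), on the 430 arrays above and the exon arrays below, for arrays labelled 0 h (blue) and 24 h (red). On the 430 arrays labelled 24 h, 6 genes lie lower and 3 higher with no overlap; on the exon arrays 7 lie higher and Fh1 lower.

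The cycle starts with citrate synthase, Cs, which joins acetyl-CoA to oxaloacetate. Its probe set 1450667_a_at read 12.33, 12.23 and 12.20 on the 430 arrays labelled 0 h and 12.58, 12.57 and 12.55 on those labelled 24 h. All arrays labelled 24 h lay above all labelled 0 h, a change of 0.31 ± 0.0643 (SE, adjusted p = 0.00362). The probe sets of Cs did not share a direction: 1422577_at was lower by 0.32 on average (-0.32 ± 0.0649, adjusted p = 0.00352), and 1422578_at showed -0.16 and was not called (adjusted p = 0.0718). The mean of the 3 probe sets changed by -0.055 (adjusted p = 0.385), so the call for Cs rests on the choice of probe set.

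Isocitrate is oxidised by 3 enzymes with separate genes in this set. Idh3a encodes the catalytic subunit of the NAD-linked mitochondrial enzyme that drives the cycle forward. It had the largest change among the 9 representative probe sets, from 12.61, 12.56 and 12.54 at 0 h to 11.54, 11.47 and 11.51 at 24 h by label, or 12.57 ± 0.0354 and 11.51 ± 0.0354 (SD, n = 3). That is 2.09-fold lower in the arrays labelled 24 h (log2 change -1.06 ± 0.0615, adjusted p = 1.53e-06). The changes of 1422501_s_at (-0.85, adjusted p = 1.25e-05) and 1422500_at (-1.22, 3.99e-06) were also called. The last Idh3a probe set, 1447701_x_at, gave -0.21 with overlapping groups (adjusted p = 0.197).

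Idh2 encodes the NADP-linked enzyme of the mitochondrial matrix. Its probe set 1450048_a_at read 10.25, 10.09 and 10.26 on the arrays labelled 0 h and 9.47, 9.42 and 9.61 on those labelled 24 h. The groups stood apart, with a change of -0.70 ± 0.0788 (SE, adjusted p = 0.0001). The other probe set of Idh2, 1453601_at, went the opposite way, from 6.47, 6.65 and 6.52 to 8.16, 8.56 and 8.15. It was 3.35-fold higher in the arrays labelled 24 h (1.75 ± 0.114, adjusted p = 3.04e-06), the largest rise of the 22 probe sets. With the mean of both probe sets Idh2 was called higher (0.52, adjusted p = 7.52e-05), so its direction on the 430 arrays depends on the probe set.

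Idh1 encodes the NADP-linked enzyme of cytosol and peroxisomes. It read 12.65, 12.69 and 12.64 on the arrays labelled 0 h and 12.37, 12.36 and 12.33 on those labelled 24 h. The fall was narrow but larger than the spread (-0.31 ± 0.0596, adjusted p = 0.00274), and the other Idh1 probe set gave -0.26 (adjusted p = 0.0221).

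Ogdh encodes the first subunit of the 2-oxoglutarate dehydrogenase complex, which yields succinyl-CoA. It read 10.52, 10.48 and 10.64 at 0 h and 9.89, 9.59 and 9.87 at 24 h by label. Array 2 labelled 24 h was the lowest, and the groups did not overlap (-0.76 ± 0.0934, SE, adjusted p = 0.000166). The second Ogdh probe set had nearly the same change at a lower signal (-0.81 ± 0.123, adjusted p = 0.000639). Suclg1 encodes the alpha subunit of succinyl-CoA ligase, which turns succinyl-CoA into succinate. It read 11.64, 11.57 and 11.62 against 11.18, 11.17 and 11.22, a change of -0.42 ± 0.0611 (adjusted p = 0.000482) on its 1 probe set.

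Fh1, fumarate hydratase, was higher where the genes from Idh3a to Suclg1 were lower. It read 12.14, 11.99 and 11.94 on the 430 arrays labelled 0 h and 12.76, 12.81 and 12.80 on those labelled 24 h. Every array labelled 24 h lay above every array labelled 0 h, 1.70-fold on average (0.77 ± 0.0721, SE, adjusted p = 3.05e-05), on the only Fh1 probe set.

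The malate dehydrogenase genes changed in opposite directions. Mdh2, the mitochondrial enzyme that closes the cycle, read 13.56, 13.67 and 13.55 at 0 h and 13.20, 13.26 and 13.15 at 24 h by label. It was lower by the fit (-0.39 ± 0.0675, adjusted p = 0.00141), and its second probe set was lower by more (-0.76 ± 0.0607, adjusted p = 1.11e-05). Mdh1, the cytosolic enzyme of the malate-aspartate shuttle, read 12.54, 12.53 and 12.58 against 13.01, 13.34 and 13.07. It was higher in all arrays labelled 24 h (0.59 ± 0.0905, adjusted p = 0.000684). Of its 4 other probe sets, 3 were also called higher, by 0.39, 0.30 and 0.43, while 1438338_at gave -0.18 with overlapping groups (adjusted p = 0.137). The 0.43 came from 1434319_at, whose means of 4.04 and 4.47 lay under the array medians of 5.78 to 5.87. The mean of all 5 probe sets was higher by 0.31 (adjusted p = 0.00186). The 95% intervals of the changes were -0.54 to -0.24 for Mdh2 and 0.38 to 0.79 for Mdh1.

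Over all 22 probe sets, 12 were called lower, 7 higher and 3 not, where 45.8% of all probe sets were called, 23.5% lower and 22.3% higher. The groups did not overlap for 13 probe sets downwards and 7 upwards, against 26.4% and 28.1% of all probe sets. Of the 7 member genes with several probe sets, Cs and Idh2 had probe sets called in both directions, as had 421 (4.67%) of the 9010 such genes on the design. Suffixes matter for reading these. In Affymetrix naming _a_at marks a probe set for several transcripts of a gene. The suffix _s_at marks one shared by several transcripts, which can be of different genes, and _x_at one with probes that can match other sequences. The probe set that stands for Mdh1 is of the last kind, while its 1448172_at, with no such suffix, also rose (0.39, adjusted p = 0.000931). Both Idh1 probe sets, 1422433_s_at and 1419821_s_at, are of the _s_at kind, so Idh1 has no 430 value from a probe set without such a suffix.

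**Figure D2:**
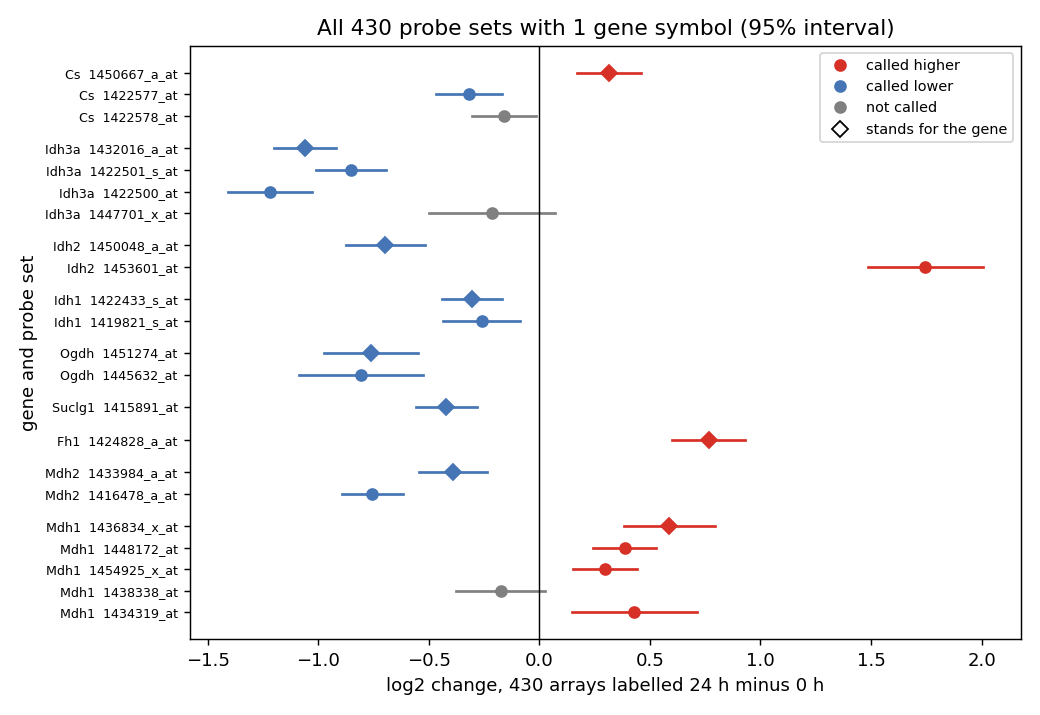
Log2 change between 430 arrays labelled 24 h and 0 h for each of the 22 probe sets, with 95% intervals; diamonds mark the probe set that stands for its gene, and colours mark calls. All 4 Idh3a probe sets lie below 0, whereas Cs and Idh2 each have probe sets on both sides.

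The exon arrays, whose probes lie along whole transcripts, give the second comparison. By label, 5 of the 8 measured members were called higher at 24 h (Idh3a, Idh2, Ogdh, Suclg1 and Mdh2), Fh1 was called lower, and Cs and Idh1 were not called. With the exon labels exchanged these are 5 lower and 1 higher. On this design 30.1% of all genes were called, 19.3% higher and 10.8% lower. All 8 members lie among the 11619 clusters with a mean signal above the median. When only these were tested, 6164 were called, 4057 higher and 2107 lower. The members' median log2 change was 0.43, against 0.0064 over all genes (-0.43 for the members with the labels exchanged). The groups did not overlap for any of the 8 genes, with 7 higher and 1 lower, while 27.6% of all genes were separated upwards and 19.6% downwards.

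Idh3a again had the largest change, from 8.12, 8.15 and 8.01 on the exon arrays labelled 0 h to 9.96, 9.88 and 9.46 on those labelled 24 h. It was 3.19-fold higher by label (1.67 ± 0.15, SE, adjusted p = 0.00079), and array 3 labelled 24 h was the lowest of its group. It was the only member called with a log2 change of at least 1 here, as were 8.66% of all genes. Suclg1 came next, at 9.04, 8.89 and 8.91 against 9.82, 10.03 and 9.97. All its arrays labelled 24 h lay above those labelled 0 h, 1.99-fold on average (0.99 ± 0.0956, adjusted p = 0.001).

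Mdh2 read 10.84, 10.86 and 10.91 at 0 h and 11.58, 11.50 and 11.33 at 24 h by label (0.60 ± 0.0954, adjusted p = 0.00623). Ogdh read 10.32, 10.25 and 10.18 against 10.83, 10.65 and 10.58 (0.44 ± 0.0997, adjusted p = 0.0231). Idh2 read 8.84, 8.67 and 8.70 against 9.21, 9.09 and 9.06 (0.38 ± 0.0918, adjusted p = 0.0279). The calls of Ogdh and Idh2 stood close to the threshold of 0.05. Ogdh lost its call without any single array but array 3 labelled 24 h (adjusted p between 0.0517 and 0.0728). Idh2 lost it without array 2 (0.0962) or 3 (0.0815) labelled 0 h or without array 1 (0.0759) or 2 (0.0787) labelled 24 h, and also with the replicate number as a block (0.0603) and with quantile normalization (0.0852).

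Fh1 was the only member called lower by label on the exon arrays, as it was the strongest rise among the representative probe sets of the 430 arrays. It went from 10.97, 10.84 and 10.95 to 10.40, 10.39 and 10.46 (-0.50 ± 0.0796, adjusted p = 0.00612). Cs read 10.42, 10.37 and 10.50 against 10.75, 10.64 and 10.58, and its change of 0.22 ± 0.0872 was not called (adjusted p = 0.125). Idh1 read 10.43, 10.45 and 10.63 against 11.02, 11.10 and 10.66. Its change of 0.42 ± 0.14 was not called (adjusted p = 0.0813), with array 3 labelled 24 h close to the highest array labelled 0 h. Without that array Idh1 was called (0.56, adjusted p = 0.0208), as it was without dim features (0.0298) and with gene means (0.0365).

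**Figure D3:**
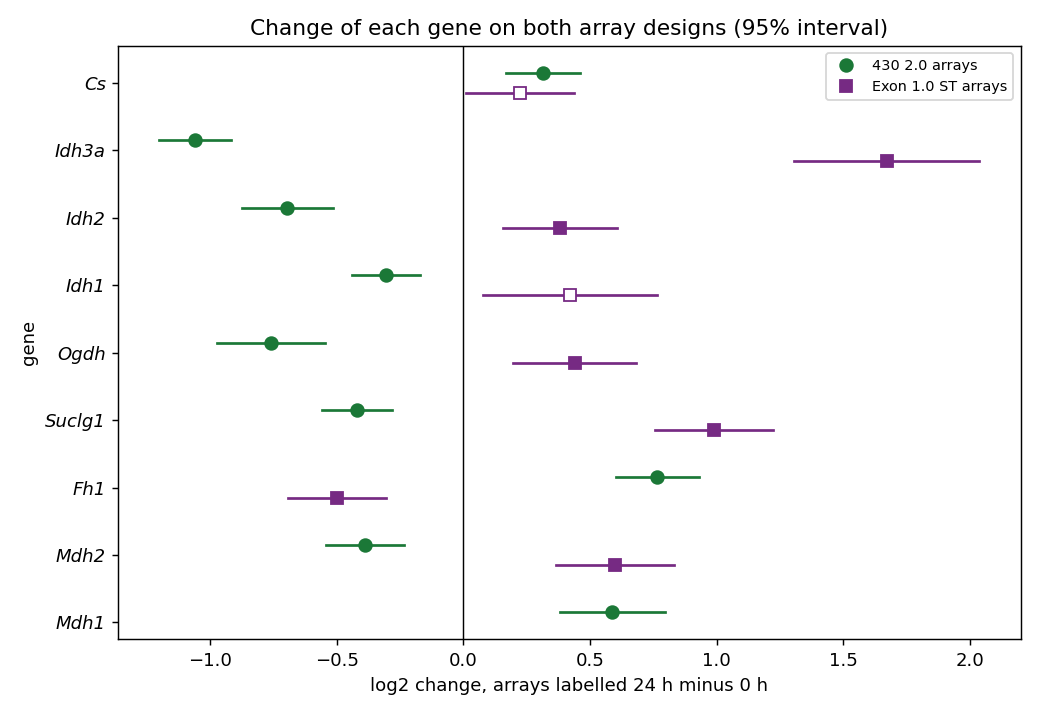
Log2 change between arrays labelled 24 h and 0 h for each gene, on the 430 arrays (green circles) and the exon arrays (purple squares), with 95% intervals; open symbols were not called. For 7 of the 8 genes on both designs the symbols lie on opposite sides of 0, and for Cs both lie above it.

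The third comparison asks whether the labelled change of a member differs between designs. It did for 7 of the 8 genes on both, where 58% of all 13356 genes differed. With dim features left out, 6233 of 7763 genes differed. Because the labels of the designs oppose, a gene that changes on both designs will mostly differ as labelled, so these differences are not particular to the members. The difference, 430 change minus exon change, was -2.73 ± 0.151 for Idh3a (adjusted p = 6.89e-10) and 1.27 ± 0.103 for Fh1 (adjusted p = 5.29e-08). Cs was the exception, at 0.090 ± 0.102 (adjusted p = 0.47, 0.0498 with quantile normalization). With the mean of each gene's probe sets the Idh2 difference lost its call (0.14, adjusted p = 0.26) and Cs gained one (-0.28, adjusted p = 0.0211). With the exon labels exchanged the sizes can be set against each other: 3 of 8 members then differed, as did 22.8% of all genes. Idh3a then had a 430 change of -1.06 and an exon change of -1.67 (difference 0.61 ± 0.151, adjusted p = 0.0102). Suclg1 changed by -0.42 and -0.99 (0.57 ± 0.106, adjusted p = 0.00196), and Cs by 0.31 and -0.22 (0.54 ± 0.102, adjusted p = 0.00215). The remaining 5 did not pass after adjustment over all genes. The 95% intervals of their differences, not adjusted for the number of genes, were -0.56 to -0.06 for Idh2, -0.19 to 0.42 for Idh1, -0.61 to -0.03 for Ogdh, 0.04 to 0.49 for Fh1 and -0.03 to 0.45 for Mdh2. Those of Idh2, Ogdh and Fh1 leave out 0, while their adjusted p-values were 0.0687, 0.101 and 0.0793. The designs read different parts of a transcript and were normalized separately, so levels were not compared between them.

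Among the other subunits of the cycle, 4 of 11 measured were called lower on the 430 arrays, 3 higher and 4 not, with a median of 0.0071. These are 36.4% lower and 27.3% higher, against 26.1% and 26% of all genes. Suclg2, the GTP-forming beta subunit of succinyl-CoA ligase, changed by -0.80 ± 0.0667 (SE, adjusted p = 1.43e-05). Dld, the dihydrolipoyl dehydrogenase shared by the 2-oxoacid dehydrogenase complexes, changed by -0.58 ± 0.0684 (adjusted p = 0.000134). Its other probe set gave 0.10 at a low signal (means 4.01 and 4.11) and was not called (0.503). The mean of both gave -0.24 (0.0235). Idh3g, a regulatory subunit partner of Idh3a, changed by -0.47 ± 0.062 (0.000262). Aco1, the cytosolic aconitase that doubles as an iron sensor, was higher on the probe set that stands for it (0.62 ± 0.0711, adjusted p = 0.000106). That probe set, 1456728_x_at, is of the _x_at kind. Its other probe sets gave 0.14 (0.116) and, at a low signal (means 5.14 and 5.27), 0.13 (0.263), and were not called. The mean of all 3 gave 0.30 (0.00136). Of 10 measured on the exon arrays, Dld was called higher by label (0.73, adjusted p = 0.0036) and none lower. Of all genes, 19.3% were called higher and 10.8% lower on this design. Aco1 (-0.28, adjusted p = 0.085) was called lower with quantile normalization (-0.43, 0.0172), without dim features (0.0374) and with gene means (0.0435).

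On the 430 arrays 26% of all genes were called higher and 26.1% lower. Of the genes of pyruvate entry 7 of 11 were not called there, 2 (18.2%) were higher and 2 (18.2%) lower, with a median of -0.071. Pdk3, a kinase that switches pyruvate dehydrogenase off, had the largest change among them (1.53 ± 0.0598, adjusted p = 1.46e-07). Its exon cluster was lower by label (-1.24 ± 0.0725, adjusted p = 0.000195). Pdhx, the protein that tethers the E3 subunit of pyruvate dehydrogenase, was lower on the 430 arrays (-0.48, adjusted p = 0.000375) and higher by label on the exon arrays (0.62, adjusted p = 0.00717). Pdp2, a phosphatase that reactivates the complex, showed -0.30 and was not called (adjusted p = 0.0548), though it was with gene means (0.0399), without dim features (0.0307), with array medians removed (0.0272) and under the variance trend (0.029). Pdk1 showed 0.25 on the probe set that stands for it (adjusted p = 0.0591), while 2 of its other probe sets were called lower (-0.32 and -0.46). That probe set was called higher with quantile normalization (0.0258), under the variance trend (0.00736), without dim features (0.031) and in the fit with the replicate block (0.0195), and the mean of the probe sets was called lower (-0.19, 0.0224). Its exon value was 0.50 (adjusted p = 0.00585). Of 8 genes of this list on the exon arrays, 4 (50%) were higher by label and 2 (25%) lower, against 19.3% and 10.8% of all genes.

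Of the genes that feed or drain the cycle, 7 of 15 were lower on the 430 arrays, 4 higher and 4 not called, with a median of -0.038. Those are 46.7% lower and 26.7% higher, against 26.1% and 26% of all genes. Me1, the cytosolic malic enzyme that makes NADPH, went from a mean of 11.89 to 9.89 (SE of the difference 0.0739, adjusted p = 1.04e-07). Pck2, the mitochondrial enzyme that turns oxaloacetate into phosphoenolpyruvate, changed by -1.95 ± 0.0633 (adjusted p = 5.13e-08). The citrate carrier gene Slc25a1 changed by -1.18 ± 0.0875 and the dicarboxylate carrier gene Slc25a10 by -1.15 ± 0.0854 (adjusted p = 6.91e-06 and 6.82e-06). By label 5 of 12 (41.7%) were higher on the exon arrays and 2 (16.7%) lower, against 19.3% and 10.8% of all genes. The exon changes were 0.95 for Pck2 (adjusted p = 0.00109), 1.19 for Slc25a10 (0.000349) and 0.39 for Slc25a1 (0.024). The Slc25a1 call was lost with quantile normalization (0.0541), with the replicate block (0.0831) and without array 1 labelled 0 h (0.0819).

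Of the regulators of mitochondrial gene expression, 8 of 11 were lower on the 430 arrays, 1 higher and 2 not called, with a median of -0.58. That is 72.7% lower and 9.09% higher, against 26.1% and 26% of all genes. The transcription factor gene Myc changed by -1.84 ± 0.0614 (adjusted p = 5.86e-08) and the PGC-1-related coactivator gene Pprc1 by -1.56 ± 0.112 (5.25e-06). Gabpb1, the partner subunit of the ETS factor GABP, changed by -1.32 ± 0.0852 (adjusted p = 2.89e-06), and Nrf1, nuclear respiratory factor, by -1.18 ± 0.0588 (5.94e-07). A further Nrf1 probe set, 1445914_at, gave 0.12 at a low signal (means 5.27 and 5.38) and was not called (0.191). The mean of all 4 gave -0.70 (2.1e-05). Of 10 on the exon arrays, 6 (60%) were higher by label and none lower, against 19.3% and 10.8% of all genes. The exon change was 1.05 for Myc (adjusted p = 0.00052), 0.93 for Pprc1 (0.00105) and 0.86 for Nrf1 (0.00264), and Gabpb1 went from a mean of 7.12 to 8.62 (0.00117).

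**Figure D4:**
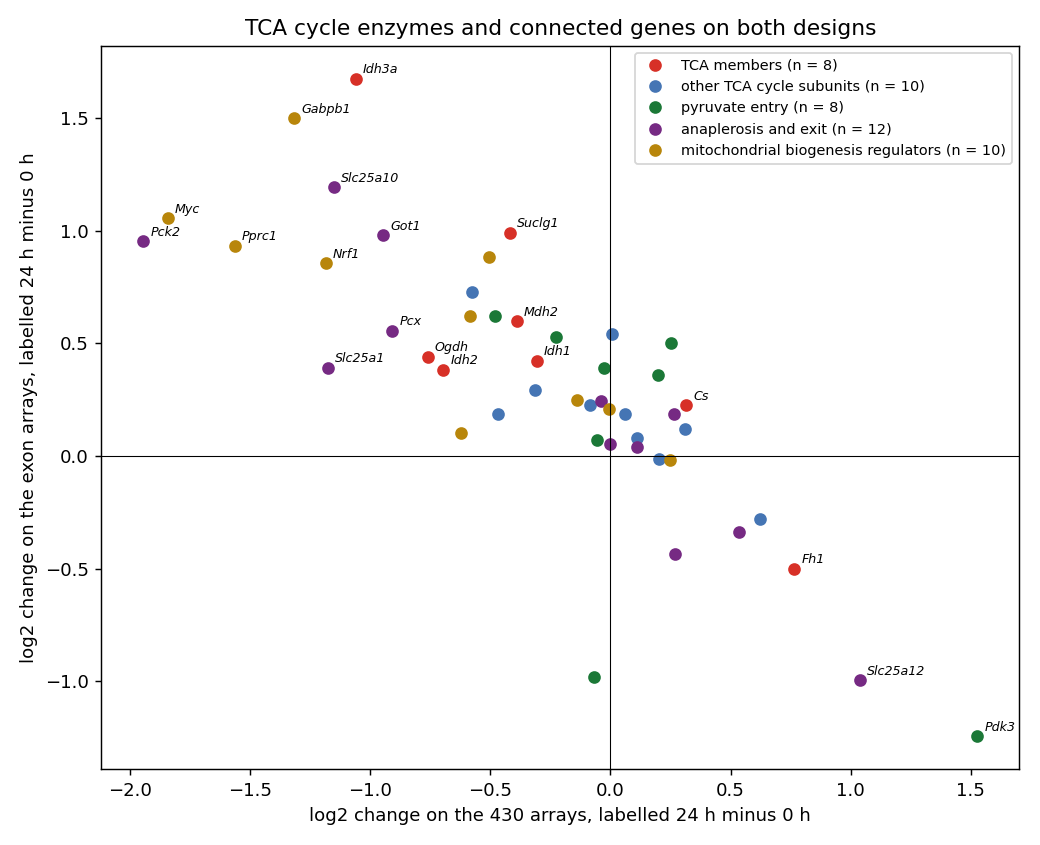
Log2 change on the 430 arrays (horizontal) against that on the exon arrays (vertical), both labelled 24 h minus 0 h, for genes on both designs; colours mark the gene lists. Of the members on both designs, 7 lie in the upper left or lower right, where the labelled directions oppose, and Cs lies in the upper right.

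The genes whose 12 array values, centred within each design, were most like the mean of the 8 members on both designs were Rbks, Abhd11, Atg4b, Nubp1 and Uspl1. Their Pearson correlations with that mean over the 12 arrays ran from 0.994 to 0.996. Such likeness was common, since 836 of 13348 genes (6.26%) exceeded 0.95. The labels do not say whether arrays of a group share a preparation. Rbks, ribokinase, had a 430 change of -0.93 and an exon change of 1.48.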

How the data were processed

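RNA was measured on 12 Affymetrix arrays, 6 of each design, grouped by title. The authors deposited 1 table of log2 signals per design, made with Affymetrix Expression Console per the submitters' processing notes. How probes were summarized into features is not stated in these sources. Per the labels' protocols, the labelled target was sense-strand DNA on both designs: 300 ng of RNA went into each 430 preparation, and 1.5 µg, after ribosomal RNA reduction, into each exon preparation. The 430 design is usually hybridised with antisense RNA, and the effect of this target on the 430 values was not tested. The notes name build mm8 for the exon arrays. Array medians lay between 5.78 and 5.87 (430) and between 5.39 and 5.42 (exon). Arrays have no read depth, and their number limits the precision; no detection calls were used.

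After 64 control probe sets were set aside, the arrays labelled 24 h were compared with those labelled 0 h in each table, over all features, by two-sided moderated tests from limma 3.58.1 (R 4.3.3). The p-values were adjusted by the Benjamini-Hochberg method, and features under 0.05 were called. With 3 arrays against 3, exact permutation reaches no lower than p = 0.1 for 1 gene. A joint limma model of all 12 arrays gave the test between designs. Symbols came from the platform annotation, updated through Entrez identifiers, and promoters from RefSeq. The script was tested on simulated data with 200 changed features per design, far fewer than were called in the real data. True log2 changes of 1 and 0.5 were recovered at 89% and 52% on the 430 arrays. On the exon arrays they were recovered at 28% and 0%, so exon changes that were not called are not shown to be absent. Members and lists were chosen with earlier results of these data known. Named were all 9 members, up to 4 genes per list with the largest 430 change and the 5 most alike genes; the marker examples are the largest of their lists, and Mpo and Cd34 were named after their values were seen. Quantile normalization, removed array medians, a filter on dim features, a variance trend, the replicate block, left-out arrays, gene means, exchanged exon labels and a minimum log2 change of 1 were tried. The labels share replicate numbers, but same-numbered arrays deviated together at r between -0.05 and 0.13, so the numbers were not taken as pairs.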

Additional observations from a re-analysis of the deposited data

Results flagged for a closer look

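The labelled change differed between the designs for 7 members, by the limma test of the difference itself. The 430 change minus the exon change was -2.73 for Idh3a, -1.41 for Suclg1, -1.20 for Ogdh, -1.08 for Idh2, -0.99 for Mdh2, -0.73 for Idh1 and 1.27 for Fh1, with adjusted p-values between 6.89e-10 and 0.00043. With the mean of each gene's probe sets the Idh2 difference was 0.14 and no longer called (adjusted p = 0.26). Of all genes on both designs, 58% differed in this way, and 6233 of 7763 did with dim features left out. The labels of the designs oppose over most changing genes, so these differences are not particular to the members. With the exon labels exchanged, Idh3a and Suclg1 still differed, in size, and the part of the array design in that was not tested. Groups of 3 arrays are too small for the test of a single far array.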

How the results depend on the processing

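All 9 members kept their call and direction on the 430 arrays under quantile normalization, removed array medians, the filter on dim features, the variance trend, the replicate block and each left-out array. With the mean of a gene's probe sets 8 were called, and Cs (-0.055) and Idh2 (0.52) turned direction, as did Pdk1 (-0.19) and the differences between designs of Cs (-0.28, now called) and Idh2 (0.14, no longer called). On the exon arrays the members called numbered between 4 and 7 as arrays were left out, 5 with quantile normalization or the replicate block and 7 without dim features or with gene means. The replicate block changed no other member's call than that of Idh2 on the exon arrays; it left 20245 of 20625 called probe sets and 4280 of 5779 called transcript clusters by count.

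Asking for a log2 change of at least 1 left 3538 probe sets, 1812 transcript clusters and 1 member on each design. With the exon labels exchanged, the exon changes became -1.67 (Idh3a), -0.38 (Idh2), -0.44 (Ogdh), -0.99 (Suclg1), 0.50 (Fh1) and -0.60 (Mdh2), 3050 genes differed between designs instead of 7745, and the differences of Idh3a (0.61), Idh1 (0.12), Suclg1 (0.57) and Mdh2 (0.21) changed sign. Removing array medians moved the share of higher calls among the 430 calls from 48.6% to 37.8%, and quantile normalization moved that of the exon arrays from 64.2% to 54.1%; the causes were not tested.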

Other observations

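Mdh1 and Mdh2 belong to the malate-aspartate shuttle. Its other genes were picked from the list on entry and exit after their values were seen, and their 430 changes are given as values. Got1, the cytosolic aspartate aminotransferase, changed by -0.95 (limma, adjusted p = 4.29e-06) and the mitochondrial Got2 by -0.24 (0.03). The Got2 call was lost with quantile normalization (0.0687), with gene means (0.0601) and without array 2 labelled 24 h (0.0941). The aspartate-glutamate carrier gene Slc25a12 changed by 1.04 (2.6e-06), or 0.40 (0.000444) as the mean of its 3 probe sets. Its relative Slc25a13 changed by 0.11 (0.325) at a low signal, with means of 4.71 and 4.82 under the array medians of 5.78 to 5.87. The 2-oxoglutarate carrier gene Slc25a11 changed by -0.0023 (0.983). On the exon arrays Got1 changed by 0.98 by label (0.0158, and 0.0542 without array 2 labelled 0 h), and the 95% interval of the Slc25a12 change was -1.23 to -0.77 (0.000956).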
